A study of Mus musculus with 24 samples.

Results

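Splenic B cells lacking NFATc1 were compared after 8 h of stimulation through the B cell receptor with unstimulated cells of the same genotype. The comparison takes 6 of the 24 Affymetrix arrays of the study, the 3 arrays labelled KO at 8 h against the 3 labelled KO at 0 h, and covers 14318 genes. The study had 2 genotypes and 4 times of anti-IgM (0, 3, 8 and 16 h), with 3 biological replicates in each of its 8 groups. No group was kept for 8 h without anti-IgM, so effects of anti-IgM and of the 8 h themselves cannot be told apart. All mice were C57BL/6 aged 6 to 8 weeks. In the KO mice exon 3 of Nfatc1, which encodes the regulatory region that binds calcineurin, was flanked by loxP sites and deleted by a Cre recombinase expressed from mb1 (Cd79a), so the deletion was made in the B lineage and not in other cells of the spleen. The control mice are called WT here, and the labels do not say whether they carried the Cre. B cells were enriched with magnetic beads, the 0 h cells received no stimulation, and RNA was extracted with Trizol.

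The B cell receptor consists of membrane immunoglobulin, here cross-linked by anti-IgM, and the signalling pair Cd79a and Cd79b. Its kinases open calcium channels, calcium activates the phosphatase calcineurin, and calcineurin dephosphorylates NFAT factors, which then enter the nucleus. NFATc1 is the NFAT family member whose transcription is itself induced in activated lymphocytes. In parallel the receptor activates MAP kinases, NF-kB and PI3 kinase, and resting B cells leave quiescence, enlarge and prepare for division.

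The signals are on a log2 scale, so a difference of 1 is a doubling. A gene was called when its Benjamini-Hochberg adjusted p from limma, fitted over all 24 arrays and 14318 genes, was under 0.05. The background level is the 40th percentile of an array, which lay between 5.66 and 5.81 on the KO 0 h arrays and between 5.52 and 6.23 on the KO 8 h arrays. Where any array of the dimmer group lay under its own level for a gene, the difference of a gene described as called is given as "at least" and was computed with such values raised to the level. In the KO 8 h group, replicate 2 stood apart in its background, with a median of 6.83 against 6.31 and 6.38 on the other arrays of the group. Its 3′ minus 5′ difference for Actb was 1.08, against 0.62 and 0.6. Without it, 4222 genes were called in place of 4539, and 3921 genes were called both times. Of 448 called genes that are on the gene lists used here or named by rule, 35 were not called without it. The B cell marker list was bright on every KO 0 h array, with a summed signal of 90132 to 113427 for 7 genes. The sum was 403 to 1290 for 7 T cell markers and 10701 to 20399 for 11 macrophage and monocyte markers. Sex-linked genes were of female type on every KO array and of male type on replicate 2 of the WT arrays at each time.

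Sequences are shown for the group of genes with the highest median difference of all lists examined, cholesterol and fatty acid synthesis, because most of their promoters share a short motif. CCAAT, read on either strand, occurred in the 250 bases before the start site of 15 of the 16 tested cholesterol and fatty acid genes that had an entry in RefSeq (93.8%). It occurred in 39.7% of all tested genes with an entry, 39.6% of those called higher, 42.3% of those called lower and 33.8% of all 32851 RefSeq windows. The 200 bases before the start site follow for the 4 genes with an entry that rose most in this group, in the RefSeq annotation of GRCm38.p6, 5′ to 3′ on the gene's strand, with CCAAT or its reverse complement ATTGG in capitals. The stretches are chr13:8885406-8885605 on the plus strand for Idi1, chr5:4104698-4104897 on the minus strand for Cyp51, chr8:64733579-64733778 on the minus strand for Msmo1 and chr13:119690151-119690350 on the plus strand for Hmgcs1. A match is a run of letters and was not tested as a binding site.
Idi1: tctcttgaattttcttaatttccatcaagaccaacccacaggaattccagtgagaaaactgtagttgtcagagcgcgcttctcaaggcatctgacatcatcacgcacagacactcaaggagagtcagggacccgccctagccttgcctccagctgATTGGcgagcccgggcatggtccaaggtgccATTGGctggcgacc
Cyp51: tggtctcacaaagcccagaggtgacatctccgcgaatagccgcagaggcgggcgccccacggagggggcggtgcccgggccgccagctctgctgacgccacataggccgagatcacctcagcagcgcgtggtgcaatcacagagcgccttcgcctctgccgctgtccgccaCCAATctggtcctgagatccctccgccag
Msmo1: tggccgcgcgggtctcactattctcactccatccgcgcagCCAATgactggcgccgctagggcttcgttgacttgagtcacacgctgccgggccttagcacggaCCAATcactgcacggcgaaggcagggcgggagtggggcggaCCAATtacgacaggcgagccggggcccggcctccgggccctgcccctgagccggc
Hmgcs1: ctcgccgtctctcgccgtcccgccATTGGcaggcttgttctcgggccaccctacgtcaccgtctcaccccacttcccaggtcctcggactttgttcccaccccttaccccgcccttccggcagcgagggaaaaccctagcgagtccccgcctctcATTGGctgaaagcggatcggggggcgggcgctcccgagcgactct

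A further sequence is shown because Mir155hg, the host transcript of microRNA-155, was among the 12 genes that rose most. The array measured the host transcript and not the mature microRNA. The mature 5′ strand lies at chr16:84714143-84714165 on the plus strand of GRCm38.p6, with its seed (bases 2 to 8) in capitals.
mmu-miR-155-5p: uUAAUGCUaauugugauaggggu

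At 8 h, 4539 of the 14318 genes (31.7%) differed from 0 h in the KO cells, 2471 higher (17.3%) and 2068 lower (14.4%). The counts given below for lists of genes stand against these 2 shares, and a count near them sets a list apart from no other genes. Genes of ribosome production, protein synthesis and folding, the proteasome, amino acid uptake and sterol synthesis rose, and the proximal B cell receptor genes, quiescence factors, MHC class II accessory genes and a set of immediate early genes fell. Of the called genes, 969 were 2-fold or more higher and 994 were 2-fold or more lower. At 8-fold or more, 45 were higher and 85 were lower. The median difference over all tested genes was 0.02. The 3 arrays of either group did not overlap for 40.5% of all tested genes and for 4332 of the called ones.

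Ahr, the aryl hydrocarbon receptor, a ligand-activated transcription factor, rose most among the genes whose arrays did not overlap, when values under the background level were raised to it. Without that step some genes with 0 h means under the level had larger differences, among them A430093F15Rik (4.75) and Lonrf3 (5.92). The signal of Ahr was 8.41, 8.41 and 8.87 at 0 h and 12.99, 13.25 and 12.65 at 8 h. This is a difference of 4.40 (SE 0.205, limma adjusted p = 9.05e-13) or 21.1-fold. All 3 arrays at 8 h lay far above the highest array at 0 h. Fabp5, a fatty acid binding protein, had 9.01, 8.69 and 8.69 at 0 h and 13.42, 12.86 and 12.86 at 8 h, which is 4.25 higher (SE 0.262, limma adjusted p = 3.48e-11). Its 2 groups were likewise wide apart. Mreg, melanoregulin, a protein of organelle transport, rose by 3.81.

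Other genes near the top were dim at 0 h. Mir155hg had 4.77, 5.64 and 7.09 at 0 h and 9.93, 9.34 and 10.70 at 8 h and was at least 3.79 higher. The gene of the alpha chain of the IL-2 receptor, Il2ra, had 4.08, 6.24 and 5.28 at 0 h and 9.11, 9.59 and 9.08 at 8 h and was at least 3.39 higher. Both genes were bright on all 3 arrays at 8 h and close to the background on most arrays at 0 h. Ccr9, a chemokine receptor of gut homing, was at least 3.44 higher, and the unnamed transcript A430093F15Rik at least 3.55 higher. Pogk, a gene of the transposase-derived kind, rose by 3.18.

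Fos, a subunit of the AP-1 transcription factor, fell most. Its signal was 13.52, 14.78 and 14.52 at 0 h and 7.85, 8.15 and 8.01 at 8 h, a difference of -6.27 (SE 0.408, limma adjusted p = 7.08e-11), so that 0 h was 77.1-fold above 8 h. Its partner Jun was at 11.56, 13.47 and 13.44 at 0 h and 7.71, 7.53 and 8.07 at 8 h, and the difference was -5.05. In both genes replicate 1 was the lowest array at 0 h and still lay above all arrays at 8 h. Fosb, another AP-1 subunit, was lower at 8 h by at least 4.79 on this scale. Klf4, a zinc finger factor of resting lymphocytes, fell by 4.88 and the MAP kinase phosphatase Dusp1 by 4.41. Socs3, an inhibitor of cytokine receptor signalling, was at least 4.30 lower.

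Among the 12 genes that fell most, Kbtbd11 was at least 4.78 lower, and Acp5, a tartrate-resistant acid phosphatase, fell by 4.58. Acp5 was at 11.97, 12.34 and 12.20 at 0 h and at 7.24, 7.64 and 7.89 at 8 h, with little spread in either group. Fgd2, an exchange factor for Cdc42, fell by 4.13. Car1, carbonic anhydrase 1, was at 10.81, 11.50 and 9.45 at 0 h and at 5.65, 7.81 and 5.87 at 8 h, and fell by 4.14 with the larger SE of 0.64. The groups of all these genes were separate, which the rule for naming them required.

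**Figure D1:**
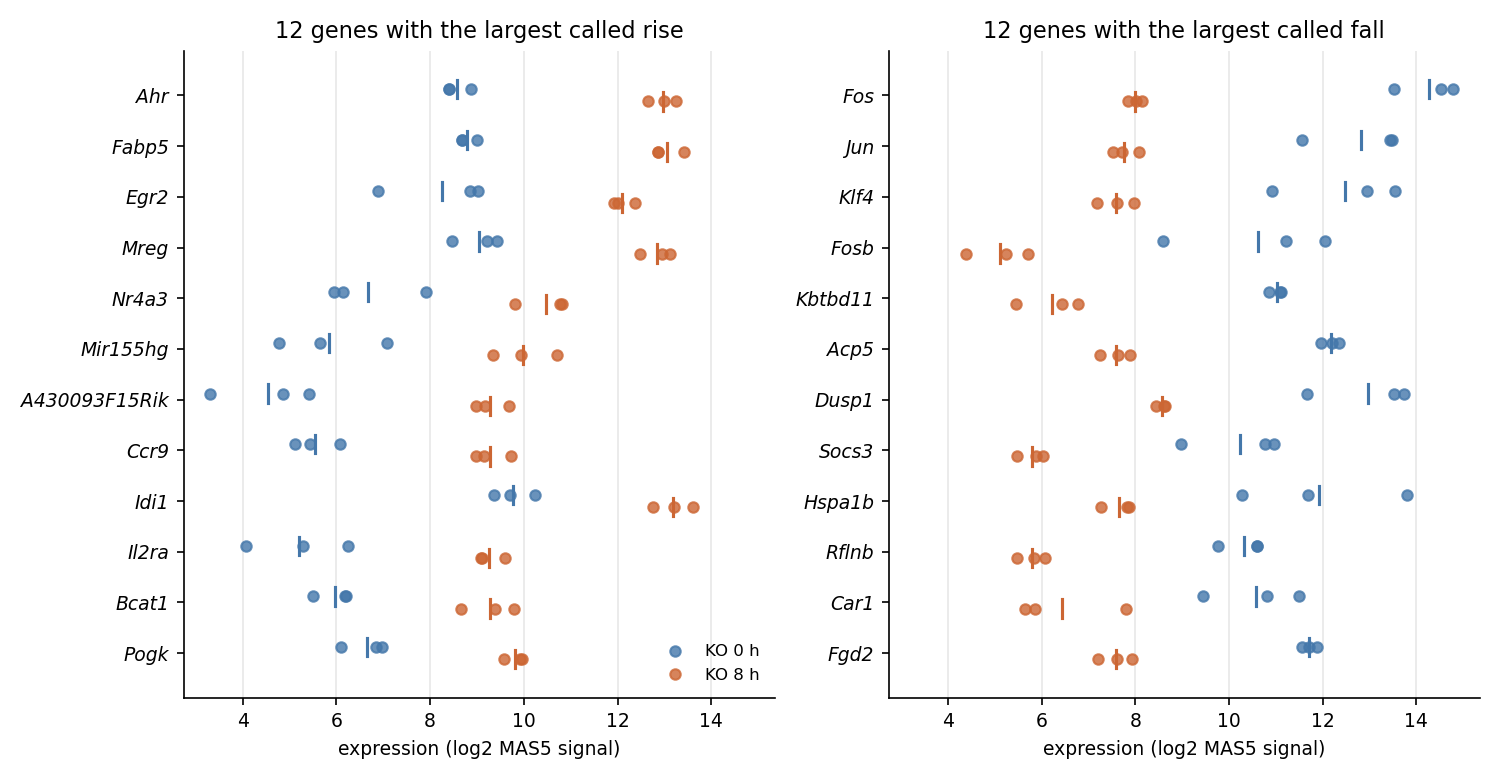
Log2 signal of the 12 highest and the 12 lowest called genes on each KO array at 0 h (blue) and 8 h (orange), with short bars at the group means. The arrays of the 2 times do not overlap for any of the 24 genes, which the naming rule required, and the widest gap is that of Fos, from 13.52 at 0 h down to 8.15 at 8 h.

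Nfatc1 was detected in the KO cells and was higher at 8 h. Its brightest probe set read 12.06, 12.30 and 12.13 at 0 h and 13.07, 13.28 and 13.16 at 8 h, a difference of 1.01 (SE 0.126, limma adjusted p = 8.9e-07). The other probe sets differed by between 0.46 and 1.22. Where the probe sets lie relative to the deleted exon 3 was not determined here, so the transcript's presence does not check the deletion. In WT cells the same probe set read 11.79, 11.96 and 12.01 at 0 h and 12.35, 12.29 and 12.71 at 8 h.

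Of 15 tested genes of the NFAT and calcineurin list, 3 rose and 6 fell, with a median difference of -0.33. Between 3 and 6 were lower over the alternatives other than the 1.5-fold minimum and the stricter filter. The lower calls of Cabin1, Dyrk1a and Nfat5 were lost when the arrays were shifted to a common median. Fkbp1a, the FK506 binding protein, rose by 0.94 and Rcan3, a calcipressin that binds calcineurin, by 1.21. The catalytic calcineurin subunits Ppp3ca and Ppp3cc fell by 1.21 and 1.02. For the regulator Rcan1, a known target of the calcineurin pathway, the difference in KO cells was 0.34 (limma adjusted p = 0.178). Nfatc2, another NFAT factor, differed by -0.96 on its brightest probe set, while the median over its 5 probe sets differed by 0.05 and was not called. The call of Rcan3 was also lost with the median over its probe sets, where the adjusted p was 0.673.

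Genes of the proximal B cell receptor pathway were lower at 8 h: 14 of 19 tested genes fell, 1 rose, and the median difference was -1.10, against 0.02 over all genes. Syk, the kinase that binds the phosphorylated receptor, read 13.41, 13.29 and 13.01 at 0 h and 10.31, 10.19 and 10.47 at 8 h, a difference of -2.91 (SE 0.154, limma adjusted p = 4.96e-12). All 4 of its probe sets showed this, with differences between -3.02 and -2.73. The scaffold Bank1 fell by 2.57. The receptor's own signalling chains fell too, Cd79a from 13.42, 13.47 and 12.81 to 11.30, 11.48 and 10.87 and Cd79b by 1.42. The adaptor Blnk, the kinase Prkcb and the PI3 kinase subunit Pik3r1 fell by 1.11, 1.10 and 1.03. The Src-family kinase Fyn was the member that rose, by 0.81. Each array was scaled to the same trimmed mean, so a lower signal is lower relative to the other genes and not per cell. In these bulk samples it can come, for instance, from fewer cells of a type or from less of the RNA in each cell. These cannot be told apart.

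Coreceptors and inhibitory receptors had 9 of 13 tested genes lower, 1 higher and a median of -0.98. Siglecg, an inhibitory sialic acid receptor, read 12.98, 12.84 and 12.58 at 0 h and 9.95, 9.82 and 9.55 at 8 h and fell by 3.02. Cd22, a related inhibitory receptor, fell by 1.60, Cr2, a complement receptor, by 1.39, and Fcgr2b, the inhibitory Fc receptor, by 0.98. Cd5, which dampens antigen receptor signals, went the other way. It read 6.62, 5.76 and 5.34 at 0 h and 7.85, 8.48 and 8.08 at 8 h and was at least 2.11 higher, with no overlap of the arrays.

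In the list of calcium entry genes 8 of 12 fell and 1 rose. Orai1, the pore of the store-operated calcium channel, rose by 1.17 and its relative Orai2 fell by 1.58. Stim1, the calcium sensor that opens the pore, fell by 1.11, and the receptors Itpr2 and Itpr3, through which stored calcium leaves the endoplasmic reticulum, fell by 1.40 and 2.07.

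The immediate early list split. Of its 24 genes, 6 were higher at 8 h and 10 were lower, with a median of -0.30. The higher ones were Egr2, Egr3, Nr4a3, Fosl1, Fosl2 and Nab2, and the lower ones included Fos, Fosb, Jun, Junb, Klf6, Zfp36 and Btg2. Egr2, a zinc finger factor induced by antigen receptors, read 6.89, 9.02 and 8.86 at 0 h and lay between 11.93 and 12.38 at 8 h, which is 3.84 higher (SE 0.346). Nr4a3, an orphan nuclear receptor, read 5.95, 6.14 and 7.92 and then 10.78, 10.82 and 9.82. Both genes were higher on every array at 8 h, which the rule for naming them required. The call of Nr4a3 rests on its brightest probe set, since 2 dim ones differed by -0.02 and -0.01, and with the median over the 3 it was not called (adjusted p = 0.869). Egr1 and Nr4a1 differed by 0.42 and 0.57 and were not called.

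At 0 h the 3 KO arrays were not alike for these genes. Replicate 1 was the lowest array for 18 of the 24 immediate early genes, for instance with 10.22 for Nr4a1 against 12.90 and 13.20. For Nr4a2 the 3 values were 2.83, 8.37 and 8.54, and for Atf3 5.26, 9.07 and 9.94. With each array of the compared groups left out in turn, 6 to 8 genes of this list were called higher and 9 to 11 lower.

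Among the MAP kinase phosphatases and Sprouty proteins, which damp MAP kinase signalling, 3 of 10 rose and 4 fell. Dusp6, which acts on ERK, fell by 2.82 together with Dusp1. Dusp4, also an ERK phosphatase, rose by 2.17, and Spry2 by 1.59.

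Surface proteins of activated B cells were mixed, with 6 of 16 higher and 5 lower. The T cell costimulator Cd86 read 9.54, 9.79 and 10.38 at 0 h and 12.33, 12.20 and 11.89 at 8 h and rose by 2.23 (SE 0.219, limma adjusted p = 2.71e-08). The transferrin receptor Tfrc, which takes up iron, rose by 1.95. Icosl, the ligand of the costimulator ICOS, fell by 3.12, Slamf1 by 2.39 and Cd40 by 0.98. Cd69, an early activation marker, read 10.64, 13.55 and 12.97 at 0 h and 11.64, 12.01 and 11.21 at 8 h, and its groups overlapped (difference -0.77, limma adjusted p = 0.193). Of 14 NF-kB genes 3 rose, among them the inhibitor Nfkbie by 1.25, and 3 fell, among them Bcl3 by 1.35. Of all tested genes 17.3% were called higher and 14.4% lower.

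Receptors that guide B cells fell more often than they rose, 10 of 17 against 2. The integrin chain Itgb7 fell by 2.78, the sphingosine phosphate receptor S1pr1, which directs exit from lymphoid organs, by 2.32, the cannabinoid receptor Cnr2 by 2.03 and the follicle homing receptor Cxcr5 by 1.36. The tetraspanin Cd9 rose by 1.65.

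In the list of chemokines and cytokines 6 of 18 rose and 4 fell. Ltb, lymphotoxin beta, read 14.36, 13.98 and 13.81 at 0 h and 10.21, 9.85 and 10.01 at 8 h, a difference of -4.03 (SE 0.181, limma adjusted p = 8.22e-13). Its partner Lta was at least 3.40 lower. The chemokines Ccl3 and Ccl4 rose by 1.93 and 1.57 and the growth factor Csf1 by 2.06. For the suppressive cytokine Il10 the values were 5.14, 5.19 and 5.23 at 0 h and 6.39, 6.83 and 6.07 at 8 h, all near the background, and the difference was at least 0.71. Its call was lost in 5 alternatives, among them with values raised to the background level, with only the compared groups in the fit, and without replicate 2 at 8 h, the array of high background. Of 18 cytokine receptor and SOCS genes 8 fell, with Il4ra, the interleukin-4 receptor chain, lower by 1.89, and 3 rose, with Il7r at least 2.32 higher.

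Genes of quiescence fell almost throughout: 18 of 19 were lower, none was higher, and the median was -1.21. Klf2, a factor that holds lymphocytes at rest, read 13.13, 14.10 and 13.59 at 0 h and 9.88, 9.23 and 10.19 at 8 h, a difference of -3.84. Tsc22d3, a glucocorticoid-induced leucine zipper protein, fell by 3.48, the forkhead factor Foxo1 by 1.71 and Txnip, an inhibitor of glucose uptake, by 1.67. The arrays of the 2 times did not overlap for Klf2. Bach2, which is not among the 18, differed by -0.52 (limma adjusted p = 0.0716). Between 15 and 19 of the genes were lower over the alternatives other than the 1.5-fold minimum and the stricter filter.

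Cell cycle genes did not move as a block. Cdk4, the kinase of early G1, read 10.45, 10.58 and 10.45 at 0 h and 12.55, 12.44 and 12.21 at 8 h, which is 1.91 higher (SE 0.13, limma adjusted p = 1.36e-10). Cdk6 rose by 1.09 and the inhibitor Cdkn1a was at least 1.95 higher. E2f2, a transcription factor of the Rb pathway, fell by 3.10 and the cyclin Ccnd3 by 0.99. In all, 3 of 19 G1 genes were higher and 8 lower.

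Of 24 DNA replication genes, 2 were higher at 8 h, the sliding clamp Pcna by 0.69 and the nuclease Fen1 by 0.67. A further 6 were lower, among them the helicase subunit Mcm4 by 0.92. The shares of all tested genes were 17.3% higher and 14.4% lower. For Mcm5, another subunit of this helicase, the 0 h values of 12.01, 11.94 and 11.75 overlapped with the 8 h values of 11.77, 11.30 and 11.45 (difference -0.40, limma adjusted p = 0.0629). Mitosis genes were lower, 12 of 20, with none higher and a median of -0.88. The proliferation marker Mki67 fell by 1.75, and the ribonucleotide reductase subunit Rrm2, which supplies DNA precursors, by 1.76.

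Ribosome biogenesis genes were all higher. All 32 were called in the main setting, with differences between 0.89 and 2.01 and a median of 1.44. All 32 were also called in every alternative other than the 1.5-fold minimum and the stricter filter. With the 1.5-fold minimum the calls of Imp4, Npm1, Polr1e and Rrs1 were lost. Utp20, a component of the small subunit processome, read 10.01, 10.07 and 9.43 at 0 h and 12.03, 11.83 and 11.70 at 8 h. The RNA polymerase I subunit Polr1b rose by 1.85, the methyltransferase Fbl (fibrillarin) by 1.61 and nucleolin (Ncl) by 1.35. The cytosolic ribosomal proteins themselves had 0 of 15 genes called, with a median of 0.14 and differences between -0.01 and 0.29 in signals that were near 15 for most of them. The list of MYC network genes had 1 of 11 higher and 5 lower. Myc itself read 10.34, 11.72 and 12.13 at 0 h and 12.16, 12.28 and 12.18 at 8 h. Its difference of 0.81 (limma adjusted p = 0.0395) was lost in 11 of 19 alternatives. Its antagonist Mxd4 fell by 2.11.

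Translation genes rose with them: 15 of 15 initiation factors (median 1.10) and 17 of 19 aminoacyl-tRNA synthetases (median 1.23), which load amino acids onto tRNAs. Eif2b3, a subunit of the exchange factor of initiation, rose by 1.89, the helicase Eif4a1 by 1.26 and the alanyl-tRNA synthetase Aars by 2.05. The valyl enzyme Vars was the member that was called lower, by 0.45; its call was lost with a common median and without replicate 2 at 8 h, among other settings.

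Protein folding and turnover genes were higher too. Of 14 subunits of the chaperonin TRiC and its partner prefoldin, 11 rose (median 0.96), led by Cct6a with 1.38. Of 24 proteasome genes 23 rose (median 1.03). Psmb3, a beta subunit of the core, read 11.63, 11.51 and 11.59 at 0 h and 12.78, 12.99 and 12.86 at 8 h, a difference of 1.30 (SE 0.102, limma adjusted p = 8.51e-10). The core subunit Psma5 rose by 1.48. The spread within either group was small beside these differences.

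Chaperones of the heat shock list parted. The mitochondrial chaperones Hspa9 and Hspd1 rose by 1.72 and 1.56, among 7 of 14 that were higher. The inducible HSP70 gene Hspa1b fell, from 10.27, 11.68 and 13.80 at 0 h to 7.86, 7.82 and 7.27 at 8 h, a difference of -4.27. The 3 arrays at 0 h spread widely for this gene. Its twin Hspa1a differed by -2.65, and since the 2 genes are nearly identical their probe sets may share signal.

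**Figure D2:**
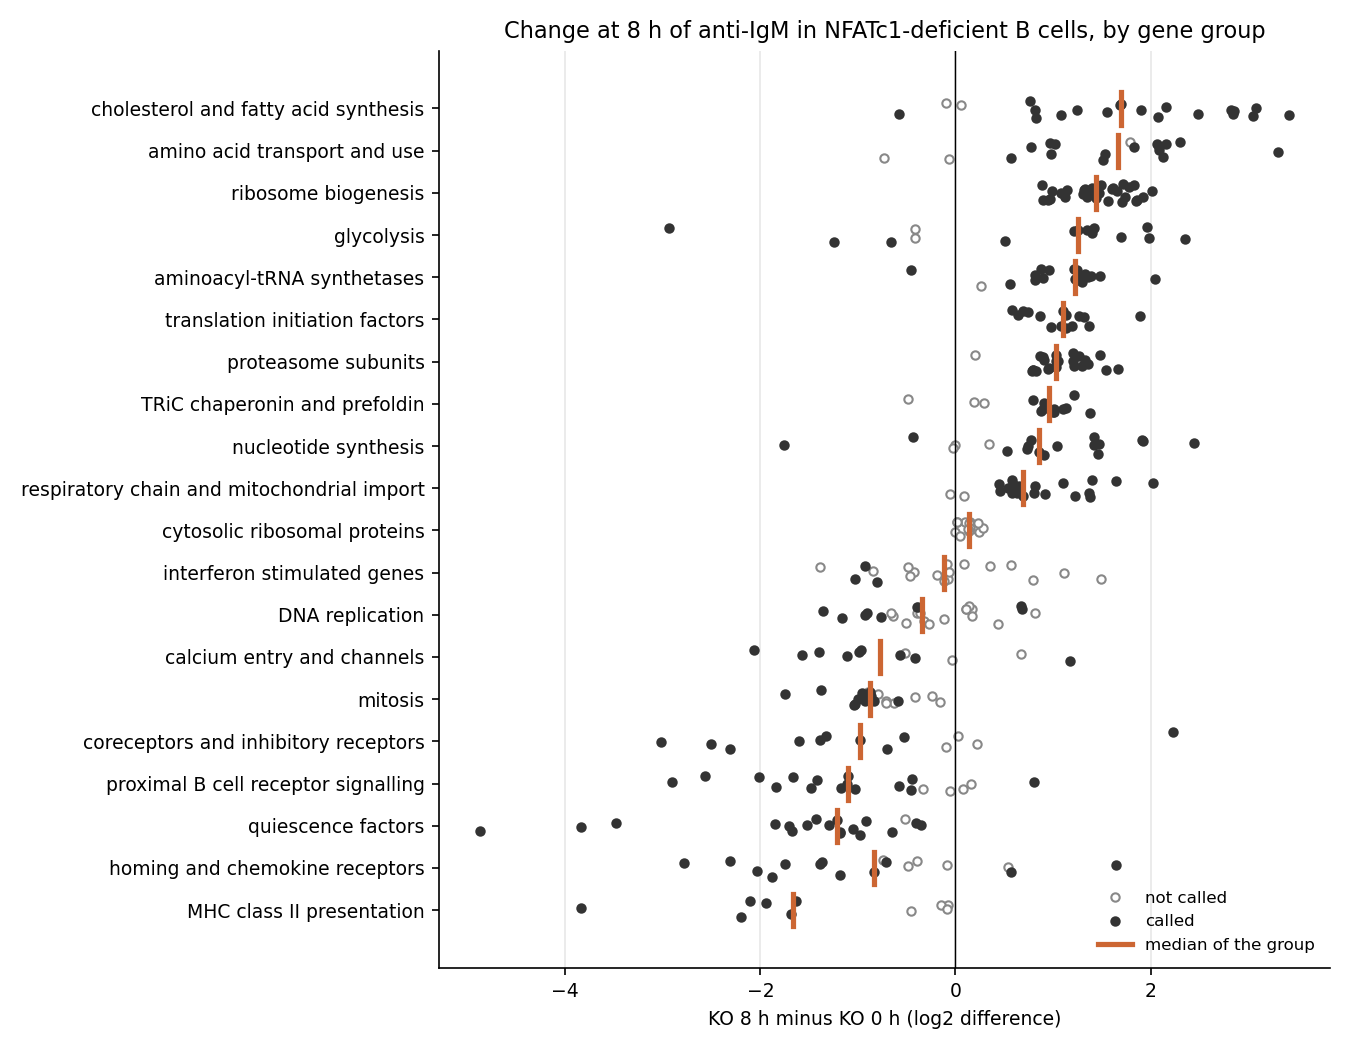
Difference in log2 signal between KO 8 h and KO 0 h for the genes of 20 lists, 1 dot a gene, filled where called, with an orange bar at the median of each list. The ribosome biogenesis dots all lie between 0.89 and 2.01 and are all filled, while the cytosolic ribosomal proteins lie close to 0 and are open.

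Metabolic genes were mostly higher. Of 18 genes of amino acid transport and use 15 rose (median 1.66). Bcat1, which transaminates branched-chain amino acids, read 6.21, 6.19 and 5.50 at 0 h and 9.78, 9.39 and 8.66 at 8 h. The large neutral amino acid transporter Slc7a5 rose by 2.30, and the mitochondrial one-carbon enzymes Shmt2 and Mthfd2 by 2.09 and 2.07. Of 19 nucleotide synthesis genes 14 rose (median 0.85) and 2 fell, with the kinase Nme1 up by 2.45 and the purine enzyme Gart by 1.91. Of 8 polyamine genes 3 rose, among them the spermidine synthase Srm by 2.10 and Odc1, the first enzyme of the pathway, by 1.27.

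Glycolysis genes were higher in 10 of 15 cases (median 1.26) and lower in 3. Ldha, lactate dehydrogenase, rose by 1.98, Pfkp by 1.97, hexokinase Hk2 by 1.70 and the lactate carrier Slc16a1 by 2.35. The glucose carrier Slc2a3 fell by 1.24. The other glucose carrier on the list, Slc2a1, read 10.49, 10.68 and 10.99 at 0 h and 10.09, 9.78 and 10.29 at 8 h (difference -0.66, limma adjusted p = 0.0275), a call lost with a common median and without replicate 2 at 8 h. The remaining lower call, Slc16a3, was lost with dim values raised to the background level, where the difference was 1.03-fold. Respiratory chain and mitochondrial import genes rose in 19 of 21 cases with a smaller median of 0.69. The import pore Tomm40 rose by 2.02.

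Sterol synthesis genes had the highest median of the lists, 1.70, with 18 of 21 genes of cholesterol and fatty acid synthesis higher and 1 lower. Idi1, which isomerises isopentenyl diphosphate, read 10.24, 9.70 and 9.37 at 0 h and 13.21, 13.61 and 12.76 at 8 h, a difference of 3.42 (SE 0.218, limma adjusted p = 5.38e-11) or 10.7-fold. Hmgcs1, the synthase at the entry of the pathway, read 11.36, 11.19 and 10.64 at 0 h and 13.91, 14.40 and 13.37 at 8 h. The lowest array at 8 h lay above the highest at 0 h by more than 2 in both genes. Fdps, which makes farnesyl diphosphate, rose by 3.05, the sterol demethylase Cyp51 by 3.08, Sqle by 2.85, Msmo1 by 2.84 and fatty acid synthase (Fasn) by 2.16. These include the 4 genes whose promoter stretches are printed above.

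Regulators of the pathway differed. Srebf2, the factor that drives sterol genes, rose by 1.25 and Insig1, which retains that factor's precursor, by 2.08. Srebf1, the factor of fatty acid genes, read 10.79, 10.67 and 9.86 at 0 h and 10.72, 10.84 and 9.92 at 8 h, and its groups overlapped (difference 0.05, limma adjusted p = 0.921). The desaturase Scd1 was called lower, by 0.58, a call lost when the arrays were shifted to a common median.

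Interferon stimulated genes had 0 of 19 called higher and 3 lower, against 17.3% and 14.4% of all tested genes. Their median was -0.12, and their 3 arrays at 8 h were far apart. Usp18, which removes the ubiquitin-like Isg15, read 9.31, 9.17 and 9.69 at 0 h and 11.50, 8.35 and 10.02 at 8 h. Rsad2, viperin, read 8.77, 8.76 and 9.29 at 0 h and 11.44, 8.93 and 9.81 at 8 h. Replicate 1 was the highest of the 3 arrays at 8 h for all 19 genes and replicate 2, the array of high background, was the lowest for 17. None of the 3 lower calls (Oas1a, Oas2 and Ddx58) held in the alternatives without replicate 2. The letters GAAA, any 2 bases and GAAA again, a motif of the interferon-stimulated response element, occurred on either strand in the 250 bases before the start of 6 of the 14 genes with an entry (42.9%), against 3.08% of all tested genes with an entry.

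Genes of B cell identity were lower. Of 19 regulators of B cell and plasma cell fate 9 fell and 4 rose. Pax5, the factor that maintains B cell identity, fell by 1.72, Ebf1 by 1.33 and Spib by 1.34. Irf4, needed for plasma cell formation, read 10.92, 12.21 and 12.41 at 0 h and 12.73, 13.22 and 12.82 at 8 h and rose by 1.08 (SE 0.238, limma adjusted p = 0.000944). Prdm1, the regulator of plasma cell secretion, differed by 0.36 and was not called.

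In the MHC class II list 6 of 10 fell and none rose, with a median of -1.66. The members that fell were the transactivator Ciita (by 1.64), the accessory chains H2-DMa, H2-DMb2, H2-Oa and H2-Ob, and Marchf1. The last is a ubiquitin ligase that removes class II from the surface. Marchf1 read 12.11, 12.41 and 12.38 at 0 h and 8.13, 8.03 and 9.21 at 8 h, a difference of -3.84. The classical chain H2-Aa read 15.54, 15.43 and 15.10 at 0 h and 15.27, 15.82 and 14.75 at 8 h, and the invariant chain Cd74 differed by -0.09. Their groups overlapped, and both lay at the top of the signal range of these genes.

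The BCL2 family moved in both directions, 4 of 15 up and 4 down, against 17.3% and 14.4% of all tested genes. Bcl2l11 (BIM), which promotes apoptosis, read 12.15, 11.69 and 11.69 at 0 h and 13.90, 13.49 and 13.41 at 8 h, a difference of 1.76, and its 5 probe sets differed by between 1.39 and 2.18. The survival gene Bcl2l1 (BCL-XL) rose by 1.04, while Bcl2 and Mcl1, which also protect cells, fell by 1.13 and 0.49.

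Markers of B cell subsets were not constant. The summed signal of the 12 marginal zone markers was 61418 to 73575 at 0 h and 34683 to 40051 at 8 h, and that of the 6 follicular markers 40411 to 50026 and 11135 to 11543. Of these lists 9 of 12 and 4 of 6 genes fell. The B1 list had 4 of 8 higher, with Ahr and Cd5 among them, and 2 lower. The B cell list itself summed to 38013 to 49986 at 8 h, below every array at 0 h, with 6 of 7 genes called lower.

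The lists of markers of other cells had calls in both directions, beside shares of 17.3% higher and 14.4% lower over all tested genes. The 11 macrophage markers summed to 10701 to 20399 at 0 h and 3636 to 10348 at 8 h, with 3 lower and 2 higher. The 7 dendritic cell markers summed to 577 to 816 and 448 to 581, with 1 lower. Of these lower calls, Lyz1 was lost in 9 of 19 alternatives, Lyz2 in 8 of 19 and the dendritic cell gene Cd209a in 6 of 18. The call of Itgam was lost in 4 of 18, among them with dim values raised to the background level. The 9 neutrophil markers summed to 834 to 5319 and 574 to 2579 with none called, and the 8 NK cell markers to 721 to 3060 and 360 to 769 with 3 lower. Among the NK calls, those of Klrd1 and Prf1 were lost without replicate 2 at 8 h, and that of Nkg7 was kept in every alternative. Of 7 T cell markers 2 rose, Cd28 by 2.81 and Il7r, and the sum was 403 to 1290 and 1447 to 2078. Cd3e, a defining T cell gene, read 6.51, 6.31 and 4.74 at 0 h and 3.97, 3.79 and 3.55 at 8 h, under the background level at 8 h. Of 6 stromal markers 1 fell, Pecam1, which B cells also carry, and 5 platelet markers had none called. Of 3 erythroid markers 1 was lower, Klf1, a call lost without replicate 2 at 0 h and without replicate 3 at 8 h. Of 6 plasma cell markers 2 rose and 1 fell, and of 6 transitional B cell markers 2 rose and 2 fell. The part of the macrophage, NK and dendritic cell signals in other genes that fell was not tested.

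Within the KO cells, 8 h was also set against the 3 h and 16 h arrays, comparisons that share the 8 h arrays with the one above. Against 3 h, 2750 genes were called (19.2%), 1890 higher (13.2%) and 860 lower (6.01%), and against 8 h, 667 were called at 16 h (4.66%), 343 higher (2.4%) and 324 lower (2.26%). The 8 h minus 3 h median of all genes was 0.12, and 0.01 with the arrays shifted to a common median, where 1133 genes were called and 618 of them were higher. The counts from 3 h to 8 h below are therefore given with both scalings.

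The groups had different courses. Of the 21 cholesterol and fatty acid genes, 9 were higher at 8 h than at 3 h (7 with a common median) and 9 were lower at 16 h than at 8 h (2 with a common median, 4 without replicate 2 at 8 h, and 1 without both KO arrays of high background, replicate 2 at 8 h and at 16 h). Fdps read 11.43, 11.17 and 11.50 at 3 h and 10.76, 10.79 and 12.02 at 16 h, so that 8 h was the highest of the 4 times (limma adjusted p = 0.00413 against 3 h and 0.00474 against 16 h). Of the 24 DNA replication genes 20 were higher at 16 h than at 8 h (16 with a common median). Mcm5 read 13.51, 13.52 and 13.05 at 16 h, above every array at 8 h.

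Of the 24 proteasome genes 14 were higher at 8 h than at 3 h, but 1 with a common median, and their median was 0.36, or 0.25 with a common median. Psmb3 was at 11.81, 11.74 and 11.98 at 3 h, below all arrays at 8 h. Of the 32 ribosome biogenesis genes 10 were lower at 8 h than at 3 h (2 with a common median) and none was higher. Of the 19 interferon genes 9 were higher at 8 h than at 3 h, 5 with a common median and 15 without replicate 2 at 8 h, and 6 were lower at 16 h than at 8 h, 2 with a common median, 11 without that array and 4 without it and replicate 2 at 16 h. Ccr9 and Fabp5 were high at 3 h and 8 h and lower at 16 h, Ccr9 with 4.32, 6.09 and 5.94 (limma adjusted p = 1.61e-05).

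**Figure D3:**
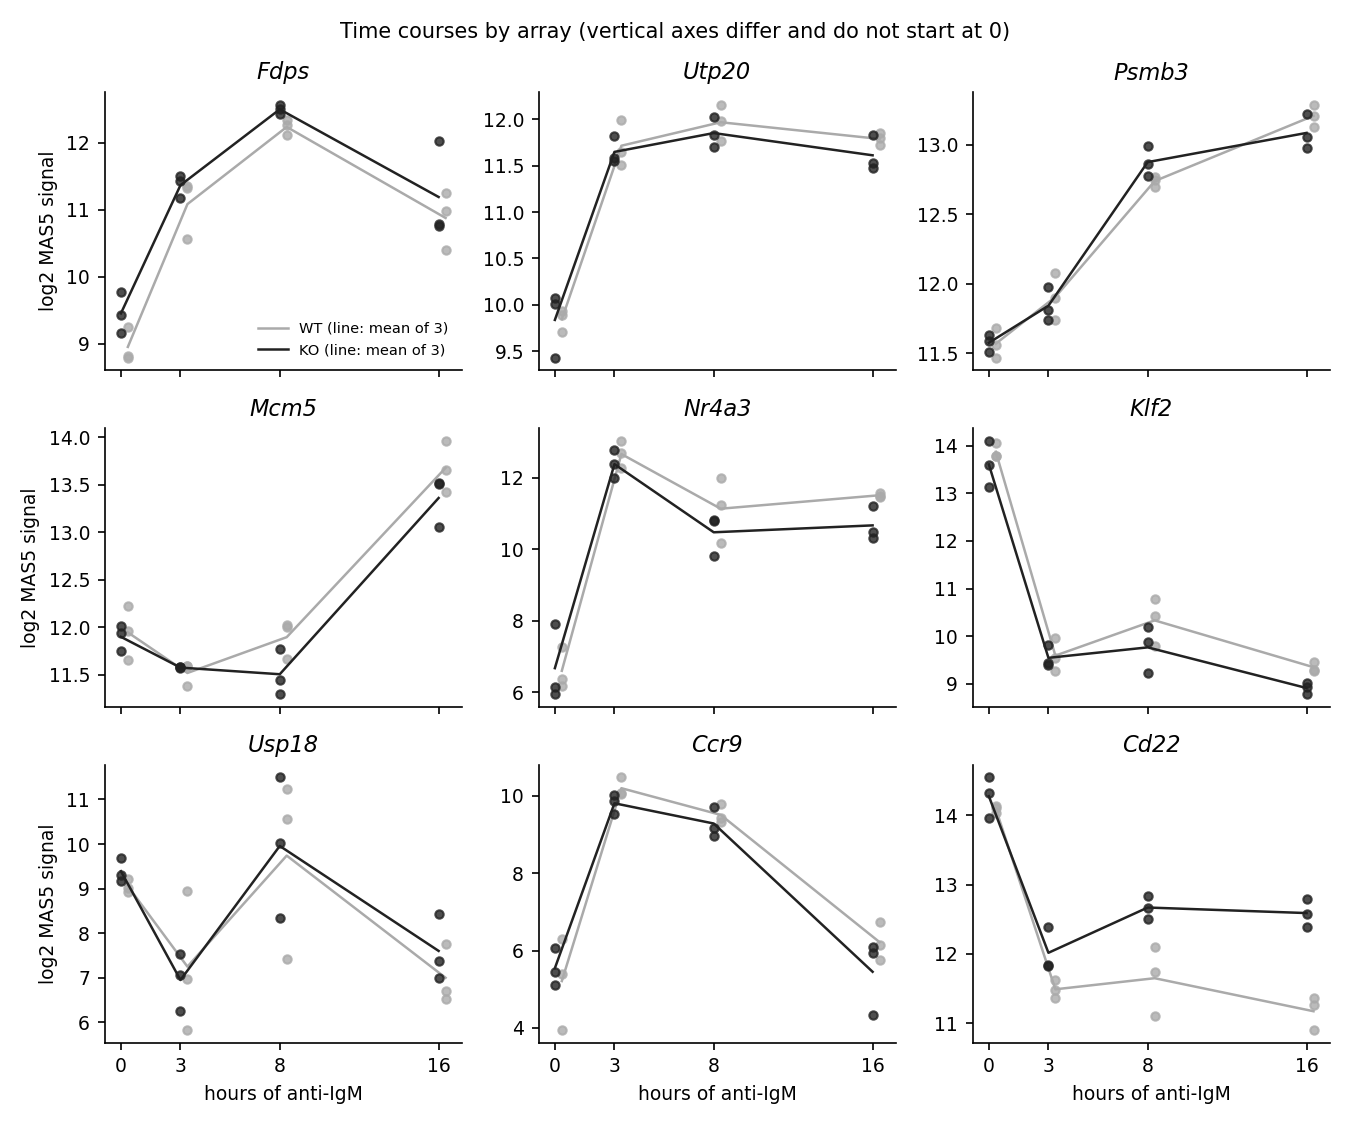
Log2 signal of 9 genes at 0, 3, 8 and 16 h of anti-IgM, 1 point an array, KO in black and WT in grey, with lines through the group means. Fdps is highest at 8 h, Mcm5 lies at 11.30 to 11.77 at 8 h and rises by 16 h, and the KO arrays of Usp18 at 8 h spread from 8.35 to 11.50.

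The same interval in WT cells shares no array with that in KO cells. There 4784 genes were called (33.4%), 2538 higher (17.7%) and 2246 lower (15.7%). Of the KO calls 84.6% were also called in WT cells, and of the WT calls 80.2% in KO cells, 3839 genes in all, each in the same direction. The correlation of the 2 changes across the 14318 genes was 0.71, given as a description because genes are not independent replicates. The median size of the change of the KO calls was 0.91 in KO cells and 0.9 in WT cells.

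The difference between the 2 changes was tested for every gene, and 0 genes were called with limma (446 at an unadjusted p under 0.05). With replicate number as a block, limma called 1 gene, Actn1. A miss of the threshold does not show that the changes were equal.

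The gene with the smallest p in this test was Actn1, which encodes an actin cross-linking protein. It read 6.39, 6.36 and 6.43 at 0 h and 6.60, 6.71 and 6.14 at 8 h in KO cells, and 6.37, 7.37 and 6.40 and then 9.96, 10.09 and 8.95 in WT cells. Its change was 2.87 smaller in KO cells (unadjusted p = 4.33e-05, limma adjusted p = 0.619). With a replicate block the limma adjusted p was 0.006 (fixed) and 0.0332 (random). With the median over its 3 probe sets the difference was -1.82 (limma adjusted p = 1.0). The KO groups overlapped and the WT groups did not. The other genes of smallest p were Rgs2, Tec, Lonrf3, Tmem143, Fermt3, Rgs13 and Bcat1. Bcat1 was at least 3.25 higher in KO cells and at least 3.78 higher in WT cells. Lonrf3 was at least 3.04 higher in KO cells and at least 2.90 higher in WT cells. For Tmem143, with dim values raised to the background level, the difference was 0.57 in KO cells and -0.48 in WT cells. Rgs2, a regulator of G protein signalling, differed by 0.15 in KO cells and fell by 1.07 in WT cells (limma adjusted p of the difference 0.999).

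Among the genes described above, the changes in KO and WT cells were 4.40 and 3.96 for Ahr, -1.60 and -2.44 for Cd22, and 0.34 and 1.15 for Rcan1. The adjusted p of the difference was 0.999 for each of the 3.

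**Figure D4:**
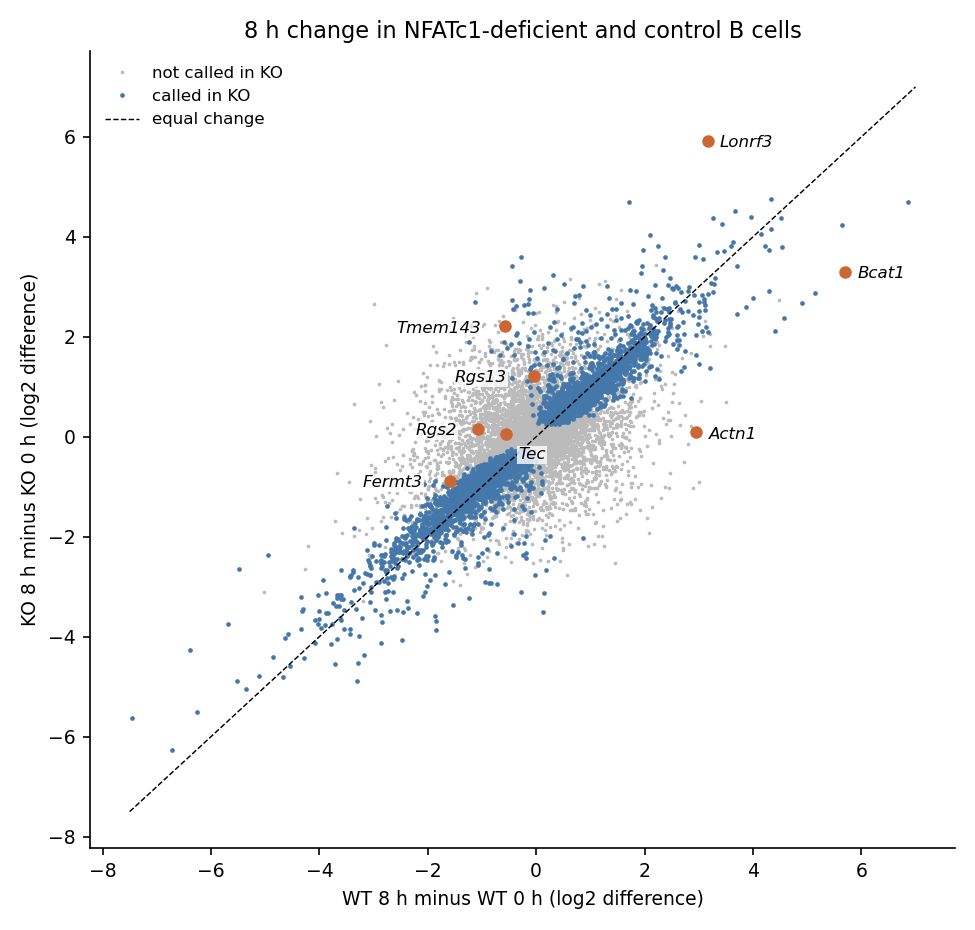
Change in log2 signal from 0 h to 8 h in KO cells (vertical) against that in WT cells (horizontal) for 14318 genes, blue where called in KO cells, with a dashed line of equal change and the 8 genes of smallest p in the test of the difference labelled. The cloud follows the dashed line (correlation 0.71), and Actn1 lies at a WT change of 2.96 and a KO change of 0.09.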

How the data were processed

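Each of the 24 RNA samples has 1 Affymetrix array. MAS5, with no version given, made the signals, per the submitters' processing notes. The authors deposited log2 values, which were used unchanged. Their scaling was kept: with 2% trimmed from either end, signals averaged 500.0 on each array. Image files and detection calls were not used here. Precision is limited by the number of arrays.

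Of 45101 probe sets, 64 controls were left out. Of the others 34945 carried 1 gene symbol in the platform annotation, 932 several and 9160 none, and 34741 were matched to RefSeq by Entrez identifier. Probe sets above the 40th percentile of their array on at least 3 arrays were kept (26671 with 1 symbol), and the one with the highest mean represented its gene. Probe sets with several symbols or none were not used. Of the called genes 2776 had several probe sets, and for 485 of them at least 1 pointed the other way.

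limma 3.58.1 in R 4.3.3 fitted 1 mean per group to the 24 arrays, and eBayes used an intensity trend (residual df 16, prior df 6.79). SE are limma's. Named genes are the 12 highest and 12 lowest called genes whose arrays did not overlap, ranked by the difference with dim values raised to the background level, and the 8 genes of smallest p in the test of KO against WT change. All others are members of 50 gene lists (683 genes tested, 26 on more than 1 list). The groups, lists and tests were chosen with earlier results of these data known, so lists are described by counts and medians. The fit was tested on simulated data, with 50 genes changed at each fold in the KO 8 h group. For KO 8 h against 0 h it recovered 58% of the 2-fold and 88% of the 8-fold changes. For the difference between KO and WT changes it recovered 44% and 68%. In either test 6 unchanged genes were called. Far fewer genes were changed in the simulation than the 4539 called in the data, and its noise was drawn independently for each array. The recovered shares therefore do not describe KO 8 h against 0 h in the data. Alternatives covered normalization (quantile, common median), the filter, the floor, the choice of probe set, replicate blocks, the arrays fitted, the eBayes trend, a minimum fold and single arrays left out. The labels call the replicates biological and do not say whether a number marks the same mouse at different times.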

Additional observations from a re-analysis of the deposited data

How the results depend on the processing

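The count of 4539 genes stayed between 3444 and 5440 under the alternatives, except 1372 with a minimum of 1.5-fold (738 higher, 634 lower), and between 3865 and 4222 with single arrays left out (2123 to 2290 higher, 1717 to 1966 lower). The higher share stayed between 52.5% and 57.7%. Of 448 called genes among those described, 241 were called in every alternative, 99 were lost only with the 1.5-fold minimum, 46 were lost with a common median and 35 without KO replicate 2 at 8 h.

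The other comparisons moved more. KO 8 h against 3 h gave 1133 genes with a common median, 164 with a minimum of 1.5-fold and 1934 to 2436 with single arrays left out. KO 16 h against 8 h gave 217 with a common median, 236 without the 2 KO arrays of highest background, 40 with a minimum of 1.5-fold, 286 with only the compared groups fitted and 380 to 604 with single arrays left out. WT 8 h against 0 h gave 3866 with a common median, 3566 without the 4 WT arrays of male type, 1696 with a minimum of 1.5-fold and 4131 to 4423 with single arrays left out. The leave-out of the background pair and that of the WT arrays of male type were chosen after seeing the data.

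Same-numbered KO arrays at 0 h and 8 h correlated in their deviations at 0.09, 0.17 and 0.12, each best with its own number, a hint from the data and not the design. With a fixed replicate block 5440 genes were called (2901 higher, 2539 lower) and with a random one 5283. For KO 16 h against 8 h the blocks gave 1507 and 1243. For the difference between KO and WT changes either replicate block called 1 gene, Actn1 (-2.87, limma adjusted p 0.006 and 0.0332). Leaving out single arrays gave 0 to 1. That 1 call came without WT replicate 2 at 0 h and was another gene, since Actn1 had a limma adjusted p of 0.0676 there.

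Signs turned in KO 8 h against 0 h for Mxd1 (0.31), Nfatc2 (0.05) and Psma1 (-0.15) with the median over probe sets, for Rgs2 (-0.12) without KO replicate 1 at 0 h (range to 0.32 with single arrays left out), for Actn1 (-0.02, range to 0.26) and Tec (-0.04) without KO replicate 2 at 8 h or the background pair, and for Tec (-0.01) with quantile normalization. The cause was not tested. Genes near the background level, such as Il10 and Mir155hg, have only a bound on 1 side.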

Other observations

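The unfolded protein response list, which describes folding in the endoplasmic reticulum, had 8 of 20 genes higher and 2 lower in KO cells at 8 h, with a median of 0.41. Pdia6, a disulphide isomerase, read 11.78, 11.78 and 12.02 at 0 h and 13.05, 12.80 and 12.91 at 8 h and rose by 1.06 (SE 0.113, limma adjusted p = 9.86e-08). The chaperone Hspa5 rose by 0.52. Atf4 and Ddit3, factors of the stress branch, differed by 0.04 and 0.41 and were not called.

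Of 10 RGS genes, which shorten G protein signals, 2 rose and 3 fell, against 17.3% and 14.4% of all tested genes. The higher call of Rgs12 was lost in 12 of 18 alternatives, among them with dim values raised to the background level. The lower call of Rgs19 was lost in 6 of 19. Rgs14 read 11.05, 10.99 and 10.80 at 0 h and 9.08, 8.87 and 8.80 at 8 h and fell by 2.03. Rgs1 read 8.06, 11.52 and 11.77 at 0 h, with replicate 1 far below the other arrays, and 11.10, 11.86 and 10.58 at 8 h. In the list of TNF, lymphotoxin and BAFF receptors 1 of 12 fell, Cd40. The BAFF receptor Tnfrsf13c differed by 0.07 and was not called.

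The E-box letters CACGTG occurred on either strand in the 250 bases before the start of 13.9% of the genes called higher, 9.89% of those called lower and 9.35% of all tested genes with a RefSeq entry, against 6.02% of all windows. Of the 27 ribosome biogenesis genes with an entry, 2 held it.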
